A study of Mus musculus with 13 samples.

Results

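The genes described here are 9 enzymes and partners that write, keep or remove DNA methylation: Dnmt1, Uhrf1, Dnmt3a, Dnmt3b, Dnmt3l, Tet1, Tet2, Tet3 and Tdg. They were taken by gene symbol, through GENCODE annotation of the mouse build GRCm38, from a table of 38377 gene identifiers, and all 9 were found. RNA was counted by bulk sequencing in 13 libraries of female mouse cells in 6 groups. The study asks what loss of Xist, the RNA that silences an X chromosome in female cells, does in female stem cells of the extraembryonic endoderm (XEN) and of the epiblast (EpiSC), and how XEN cells respond to a DNA methylation inhibitor. EpiSC are lines of the postimplantation epiblast, grown on matrigel with FGF2 and Activin, and were heterozygous for an Xist deletion (dXist, 2 libraries) or wild type (WT, 2 libraries). XEN cells are lines of the primitive endoderm lineage, grown in DMEM with FBS. They carried a deletion of the paternal Xist and were treated with 20 uM 5-aza-2'-deoxycytidine (Aza, 2 libraries), were WT and treated (2 libraries), carried the deletion untreated (3 libraries), or were WT untreated (2 libraries). The sources used here do not state whether libraries of a group came from separate clones or cultures, so p-values cover the spread between these libraries and may be technical.

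Methylation of cytosine in CpG dinucleotides is copied after replication by Dnmt1, which Uhrf1 brings to half-methylated DNA. Dnmt3a and Dnmt3b set new methylation, and Dnmt3l, which has no catalytic activity of its own, stimulates them. Tet1, Tet2 and Tet3 oxidise methylcytosine, and the glycosylase Tdg cuts out the most oxidised forms so that base excision repair can restore cytosine. In the embryo the epiblast gains methylation strongly at implantation, while the extraembryonic lineages stay less methylated. Aza is a cytidine analogue that enters DNA in S phase and traps the methyltransferase proteins there, and protein was not measured in this series.

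The promoters of Dnmt3l, called lower in EpiSC, of Tet1, called higher, and of Dnmt3b, not called, are printed as examples from among the members, because methylation acts on CpG. Each line gives the 250 bases before an annotated start, 5' to 3' on the gene's strand, from RefSeq on GRCm38.p6, with every CpG in capitals.
Dnmt3l start 1 (chr10:78042037-78042286, plus strand): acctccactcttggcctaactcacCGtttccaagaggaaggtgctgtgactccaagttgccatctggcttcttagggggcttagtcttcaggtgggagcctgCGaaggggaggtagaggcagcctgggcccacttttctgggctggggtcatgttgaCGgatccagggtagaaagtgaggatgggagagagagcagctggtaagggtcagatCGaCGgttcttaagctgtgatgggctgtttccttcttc
Dnmt3l start 2 (chr10:78049592-78049841, plus strand): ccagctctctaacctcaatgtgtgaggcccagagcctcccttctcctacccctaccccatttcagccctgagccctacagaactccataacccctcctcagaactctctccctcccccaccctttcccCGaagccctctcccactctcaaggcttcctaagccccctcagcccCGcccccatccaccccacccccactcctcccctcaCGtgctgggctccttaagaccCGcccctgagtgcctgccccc
Dnmt3l start 3 (chr10:78055085-78055334, plus strand): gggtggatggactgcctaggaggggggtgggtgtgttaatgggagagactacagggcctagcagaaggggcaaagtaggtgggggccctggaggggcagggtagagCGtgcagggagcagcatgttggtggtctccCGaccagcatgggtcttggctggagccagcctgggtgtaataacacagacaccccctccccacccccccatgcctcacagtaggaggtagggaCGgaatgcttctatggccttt
Dnmt3b (chr2:153649199-153649448, plus strand): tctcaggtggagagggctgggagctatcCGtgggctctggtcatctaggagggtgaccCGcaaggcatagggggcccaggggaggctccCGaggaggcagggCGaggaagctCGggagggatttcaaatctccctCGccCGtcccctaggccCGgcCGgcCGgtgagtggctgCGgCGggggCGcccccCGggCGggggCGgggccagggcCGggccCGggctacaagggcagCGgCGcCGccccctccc
Tet1 (chr10:62887325-62887574, minus strand): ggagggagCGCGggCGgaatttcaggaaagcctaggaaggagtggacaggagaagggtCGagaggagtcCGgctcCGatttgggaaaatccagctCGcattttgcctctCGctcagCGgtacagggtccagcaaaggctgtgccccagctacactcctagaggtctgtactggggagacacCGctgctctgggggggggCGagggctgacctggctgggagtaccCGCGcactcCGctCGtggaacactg

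The 3 Dnmt3l windows held 5, 4 and 3 CpG, fewer than the median of 6 over 32851 promoter windows of the same length in the mouse genome. The Tet1 window held 15 CpG, more than 72.7% of all windows, and the Dnmt3b window 21, more than 83.7%. The other members held from 2 CpG, at the first of 3 Dnmt1 starts, to 51 at Tet2, which was more than 99.9% of windows. The GC box GGGCGG, searched on both strands, lay in 32.7% of all windows. It was found 3 times before Dnmt3b, 1 time before Tet1, 2 times before Dnmt3l start 2 and not before Dnmt3l starts 1 and 3. These are letters in a window, and no methylation was measured.

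All 9 genes are autosomal. On GRCm38 they span chromosome 9, 20907209 to 20959888 (Dnmt1), chromosome 17, 56303321 to 56323486 (Uhrf1), chromosome 12, 3806007 to 3914443 (Dnmt3a), chromosome 2, 153649450 to 153687730 (Dnmt3b), and chromosome 10, 78041947 to 78063622 (Dnmt3l). The erasers span chromosome 10, 62804570 to 62908996 (Tet1), chromosome 3, 133463679 to 133545139 (Tet2), chromosome 6, 83362373 to 83459084 (Tet3) and chromosome 10, 82629828 to 82650799 (Tdg). Exons of 4 members share bases with a gene on the opposite strand, and the strand used in counting is not given: 67 bases of Dnmt3l with Aire, 133 of Dnmt3a with Dnmt3aos, 43 of Tet2 with Gm42567 and 367 of Tdg with Glt8d2. Aire reached at most 2.15 CPM (counts scaled by TMM to the library size) in any library and the other partners at most 1.34 CPM. Aire stood at 0.726 to 1.71 CPM in EpiSC, above Dnmt3l there, and reads in the shared bases cannot be assigned to one of them.

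Several libraries stood apart. Total counts ran from 5848454 to 35247432 per library. Transcripts without long poly(A) tails (mt-Rnr1, mt-Rnr2 and Rn7sk, called tailless below) took 10.4% to 13.5% of counts in library 2 of each EpiSC genotype and in both treated WT XEN libraries. They took 0.0152% to 0.279% in the other 9. The first 4 are called total-RNA-like below and the 9 polyA-like. Xist was at 14.6 and 242 CPM in the treated dXist XEN libraries 1 and 2, and at 1.16 to 4.79 CPM in the 3 untreated dXist XEN libraries. Both treated libraries thus stood above all untreated ones, library 2 by far the most. The label names a deletion of the paternal Xist, so Xist RNA does not by itself contradict it. The source of this RNA was not tested. Untreated dXist XEN library 3 lay inside the WT range for 5 of the 9 members, against 2 members in library 1 and 0 in library 2. The cell type labels were met: 12 endoderm markers summed to 964 to 1463 CPM in EpiSC and 32762 to 94956 CPM in XEN, and 11 epiblast markers to 809 to 1250 CPM in EpiSC and 0.815 to 38.3 CPM in XEN.

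**Figure D1:**
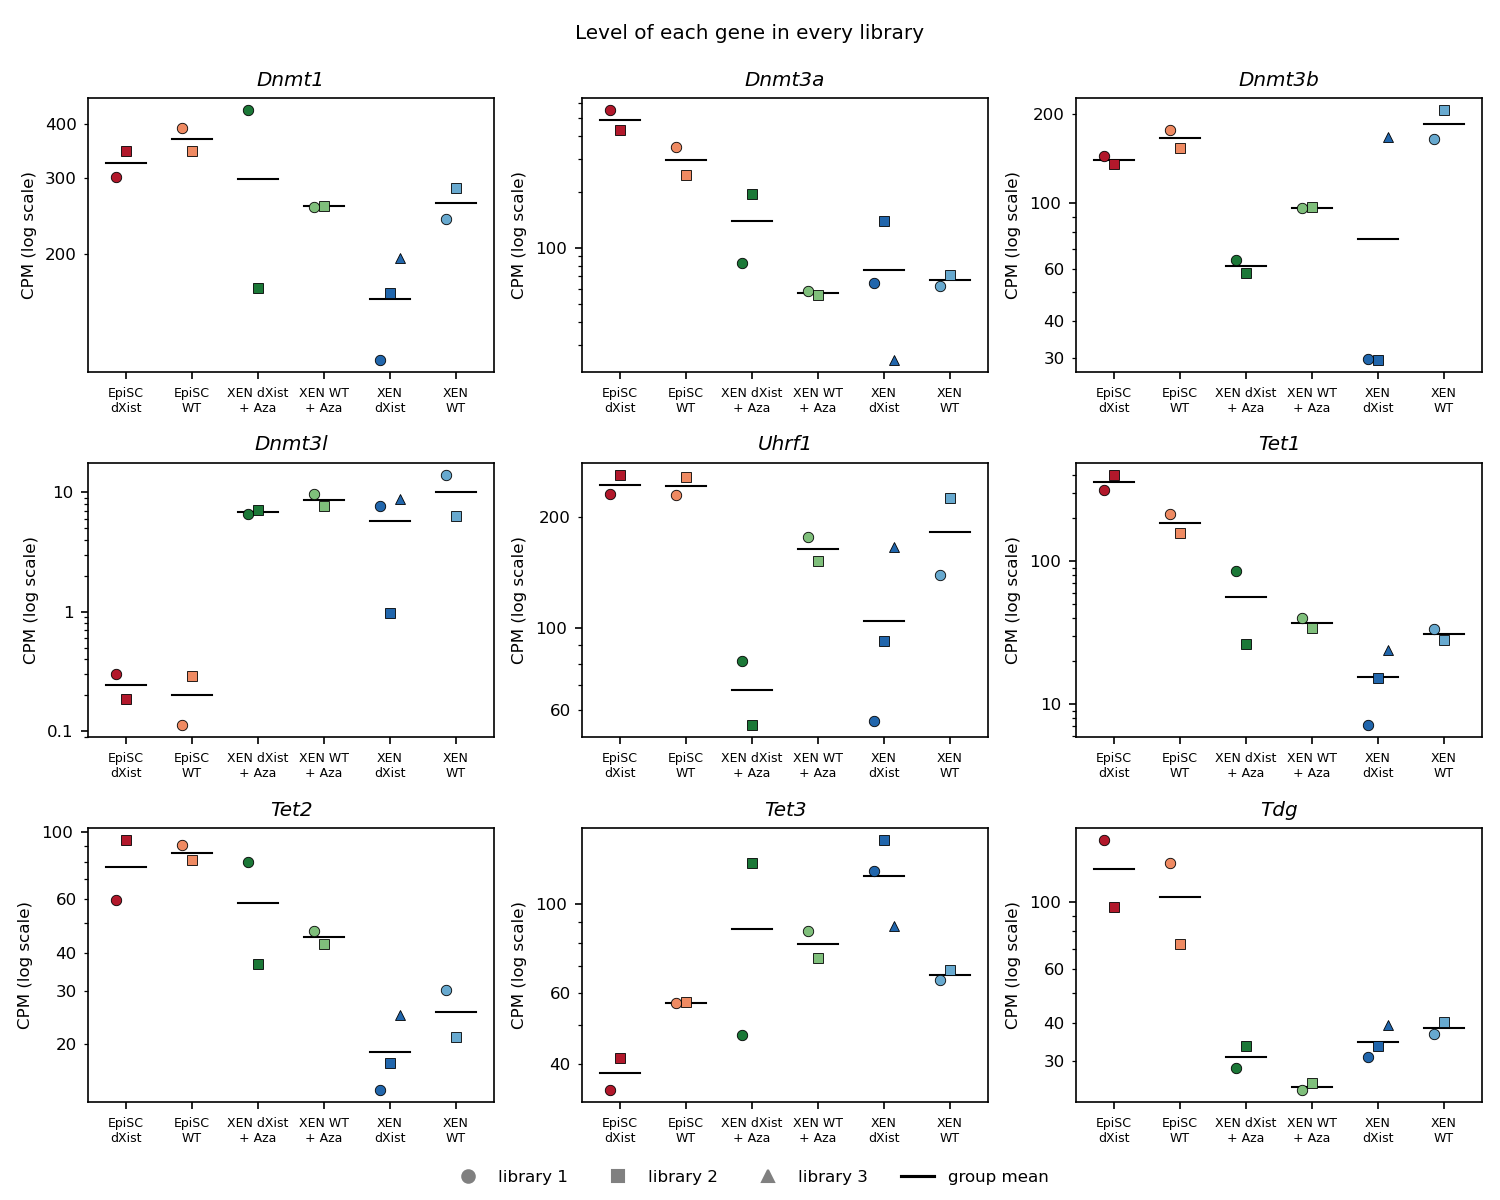
Level of each of the 9 genes in every library (CPM, log axis), by group, with the mean of a group as a bar and the library number as the symbol. Tet1, Dnmt3a, Tdg and Uhrf1 stood higher in every EpiSC library than in every XEN library. For Uhrf1 the margin was narrow, with 229 CPM in WT EpiSC library 1 and 225 CPM in WT XEN library 2. Dnmt3l stood lower in every EpiSC library, and Dnmt3b was near 30 CPM in only 2 libraries, both untreated dXist XEN.

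The copying pair was among the most abundant members per length. Per kilobase of exon (FPKM), Uhrf1 averaged 57.4 ± 4.79 in dXist EpiSC, 57.1 ± 4.53 in WT EpiSC, 24.6 ± 13.2 in dXist XEN and 42.7 ± 14.3 in WT XEN (SD, n = 2, 2, 3 and 2). Dnmt1 averaged 44.0 ± 4.34 FPKM in dXist EpiSC, 50.0 ± 4.36 in WT EpiSC, 21.3 ± 5.61 in dXist XEN and 35.6 ± 4.17 in WT XEN. Uhrf1 stood above Dnmt1 without overlap between libraries in both EpiSC genotypes. In WT XEN, Uhrf1, Dnmt3b (36.3 ± 5.71 FPKM) and Dnmt1 overlapped between libraries, and in WT EpiSC the same 3 genes did not overlap, with Dnmt3b after the other two at 32.5 ± 3.17 FPKM. At the other end Dnmt3l was last in both EpiSC genotypes, at 0.0808 ± 0.0271 FPKM in dXist and 0.0675 ± 0.0420 in WT, while in WT XEN at 3.37 ± 1.79 FPKM it overlapped with Tet3 above it and Tet1 below it. In dXist XEN every pair of neighbours in the order overlapped, so no order is read there. These are bulk levels, in which fewer cells of a type and less RNA per cell cannot be told apart.

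EpiSC were first compared with XEN cells in the wild type, to describe the cell types. Tet1, Tet2, Tdg and Dnmt3a stood higher in EpiSC, Dnmt3l stood far lower, and the eraser Tet3 did not pass the test. Of the 9 members 4 rose in EpiSC (Dnmt3a, Tet1, Tet2 and Tdg) and 1 fell (Dnmt3l), by edgeR's quasi-likelihood test at an adjusted p under 0.05. Across 19733 genes 30.8% were called, 16.8% higher and 14.1% lower, so calls were common in this comparison. The members' median log2 change was 0.49, against 0.13 over all genes. Groups did not overlap for 8 of the 9 members, and this held for 66.4% of all genes.

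Dnmt3a, a de novo enzyme, had 350.4 and 246 CPM in WT EpiSC, against 62.6 and 71.2 CPM in WT XEN. It was 4.46-fold higher (log2 change 2.16, SE 0.65, adjusted p = 0.0335). Both EpiSC libraries were far above both XEN libraries. The second de novo enzyme, Dnmt3b, had 177 and 154 CPM in WT EpiSC, against 165 and 206 CPM in WT XEN. Its groups overlapped and it did not pass (log2 change -0.16, SE 0.74, adjusted p = 0.880). Dnmt3a over Dnmt3b, per length, was 0.607 and 0.490 in the WT EpiSC libraries and 0.116 and 0.106 in the WT XEN libraries. Their cofactor Dnmt3l had 0.113 and 0.291 CPM in WT EpiSC, from 4 and 6 counts, against 13.8 and 6.28 CPM in WT XEN, from 413 and 197 counts. The exact 95% counting interval of the higher EpiSC library ended at 0.632 CPM, and that of the lower XEN library began at 5.44 CPM. Dnmt3l was 49.9-fold lower by group means (log2 change -5.67, SE 1.16, adjusted p = 0.00648). It passed the filter on low counts through its XEN libraries, where it was high, so its call adds no support to the count of members called.

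The largest rise among the erasers was that of Tet1, which had 215 and 157 CPM in WT EpiSC, against 33.7 and 28.4 CPM in WT XEN. It was 5.99-fold higher (log2 change 2.58, SE 0.51, adjusted p = 0.00545). Tet2 had 90.6 and 80.7 CPM in WT EpiSC, against 30.1 and 21.2 CPM in WT XEN, a 3.34-fold rise (log2 change 1.74, SE 0.37, adjusted p = 0.00803). The third dioxygenase, Tet3, had 56.8 and 56.9 CPM in WT EpiSC, against 64.6 and 68.4 CPM in WT XEN, and did not pass the test (log2 change -0.23, adjusted p = 0.567). Tdg, which acts after the Tet enzymes, had 135 and 72.9 CPM in WT EpiSC, against 36.7 and 40.3 CPM in WT XEN (log2 change 1.43, SE 0.37, adjusted p = 0.0182). The EpiSC libraries of Tdg were themselves 0.88 apart on the log2 scale, the total-RNA-like one lower. The copying pair did not pass: Dnmt1 had 392 and 346 CPM in WT EpiSC, against 241 and 285 CPM in WT XEN (log2 change 0.49, adjusted p = 0.273), and Uhrf1 had 229 and 257 CPM in WT EpiSC, against 139 and 225 CPM in WT XEN (log2 change 0.42, adjusted p = 0.511).

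Of these 5 calls, that of Tet1 passed under all 12 alternative settings. Among polyA-like libraries alone 3 members were called (Tet1, Tet2 and Tdg), with 16.4% of all genes. The call of Dnmt3a was lost without any one of the 4 WT libraries (adjusted p = 0.0566 to 0.145) and among polyA-like libraries alone (0.0875), and that of Dnmt3l among polyA-like libraries alone (0.0538) and without WT EpiSC library 1 (0.0653). Tdg was lost without WT EpiSC library 1 (adjusted p = 0.115), WT XEN library 1 (0.0996) or WT XEN library 2 (0.0660), and Tet2 without WT XEN library 2 (0.0551), all with the same direction. Fibroblast markers differed between the cell types as well: 11 of 12 were called higher in WT EpiSC, beside 16.8% of all genes. They summed to 1602 to 2597 CPM in WT EpiSC and 244 to 299 CPM in WT XEN, with none at 0 in WT EpiSC and 2 to 6 at 0 in WT XEN. Col1a2, Col3a1 and Dcn stood near the floor in WT XEN (0.164, 0.151 and 0.0168 CPM), so their calls add no support. The part of the fibroblast markers in the members' differences was not tested.

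The same comparison among dXist cells uses other libraries throughout. Here 8 of 9 members were called, 6 higher and 2 lower in EpiSC, against 38.4% of all genes (21.5% higher and 16.9% lower). Groups did not overlap for 8 members, and for 68.7% of all genes. The members' median log2 change was 1.25, against 0.09 over all genes. The 5 genes called in the wild type were called again in the same direction, and Dnmt1, Uhrf1 and Tet3 passed in addition. A pass in one genotype and not in the other is no test of a difference between genotypes, which is given further on.

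Tet1 had 314 and 398 CPM in dXist EpiSC, against 7.18, 15.4 and 24.0 CPM in dXist XEN. It was 23.0-fold higher (log2 change 4.55, SE 0.47, adjusted p = 0.000159), and its lowest EpiSC value was far above its highest XEN value. Tet3 had 34.6 and 41.4 CPM in dXist EpiSC, against 120.2, 143 and 88.0 CPM in dXist XEN, a 3.08-fold fall (log2 change -1.60, SE 0.28, adjusted p = 0.00261). Tet2 had 59.7 and 93.9 CPM in dXist EpiSC, against 14.1, 17.3 and 25.0 CPM in dXist XEN (log2 change 2.06, SE 0.33, adjusted p = 0.00156). So 2 Tet genes stood higher and 1 lower in dXist EpiSC, without overlap between libraries. Tdg had 159 and 96.5 CPM in dXist EpiSC, against 30.9, 33.6 and 39.5 CPM in dXist XEN (log2 change 1.92, SE 0.33, adjusted p = 0.00222).

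Among the writers, Dnmt3a had 549 and 432 CPM in dXist EpiSC, against 64.2, 139.7 and 24.9 CPM in dXist XEN (6.43-fold, log2 change 2.71, SE 0.58, adjusted p = 0.00626). Dnmt3l had 0.299 and 0.184 CPM in dXist EpiSC, from 11 and 4 counts, against 7.67, 0.972 and 8.76 CPM in dXist XEN, from 239, 26 and 258 counts. Dnmt3l again passed the filter on low counts through its XEN libraries. It was 24.0-fold lower (log2 change -4.50, SE 1.06, adjusted p = 0.0101), and dXist XEN library 2 was close to an order of magnitude below its fellows. Dnmt1 had 302 and 347 CPM in dXist EpiSC, against 114, 162 and 196 CPM in dXist XEN (log2 change 1.07, SE 0.30, adjusted p = 0.0200). Uhrf1 had 229.8 and 259 CPM in dXist EpiSC, against 56.0, 91.9 and 166 CPM in dXist XEN (log2 change 1.25, SE 0.42, adjusted p = 0.0420). Dnmt3b had 145 and 136 CPM in dXist EpiSC, against 29.7, 29.6 and 168 CPM in dXist XEN. XEN library 3 alone was above the EpiSC libraries, and Dnmt3b did not pass with it (log2 change 0.92, SE 0.67, adjusted p = 0.290). Without that library the log2 change of Dnmt3b was 2.28 (SE 0.27, adjusted p = 0.000298), and all 9 members were called, with 43.4% of all genes. Without XEN library 1 or 2 instead, the change of Dnmt3b was 0.53 in each case (adjusted p = 0.558 and 0.545). Library 3 stands out by its own Dnmt3b value, so the Dnmt3b call without it adds no support.

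Dnmt3a, Tet1, Tet2, Tet3 and Tdg were called in dXist cells under all 13 alternatives. Among polyA-like libraries alone these 5 were the members called, with 13.4% of all genes. There the adjusted p was 0.126 for Dnmt1, 0.199 for Uhrf1 and 0.118 for Dnmt3l. These 3 calls were also lost without dXist EpiSC library 1 (0.0776, 0.113 and 0.0556, in the same order) or library 2 (0.134, 0.170 and 0.0817), and those of Dnmt1 and Uhrf1 without dXist XEN library 1 (0.0712 and 0.106) or library 2 (0.0516 and 0.110). With all libraries and a library type term the calls of Dnmt1 (0.104) and Uhrf1 (0.0937) were lost, and with the compared groups alone that of Uhrf1 (0.0688). The direction was kept each time. Fibroblast markers summed to 923 to 1033 CPM in dXist EpiSC and 31.7 to 132 CPM in dXist XEN, where 4 to 6 of the 12 had no count. Of the 12, 10 were called higher, beside 21.5% of all genes. Thy1 (0 CPM) and Postn (0.102 CPM) stood at or near the floor in dXist XEN, so their calls add no support. The part of the fibroblast markers was not tested.

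**Figure D2:**
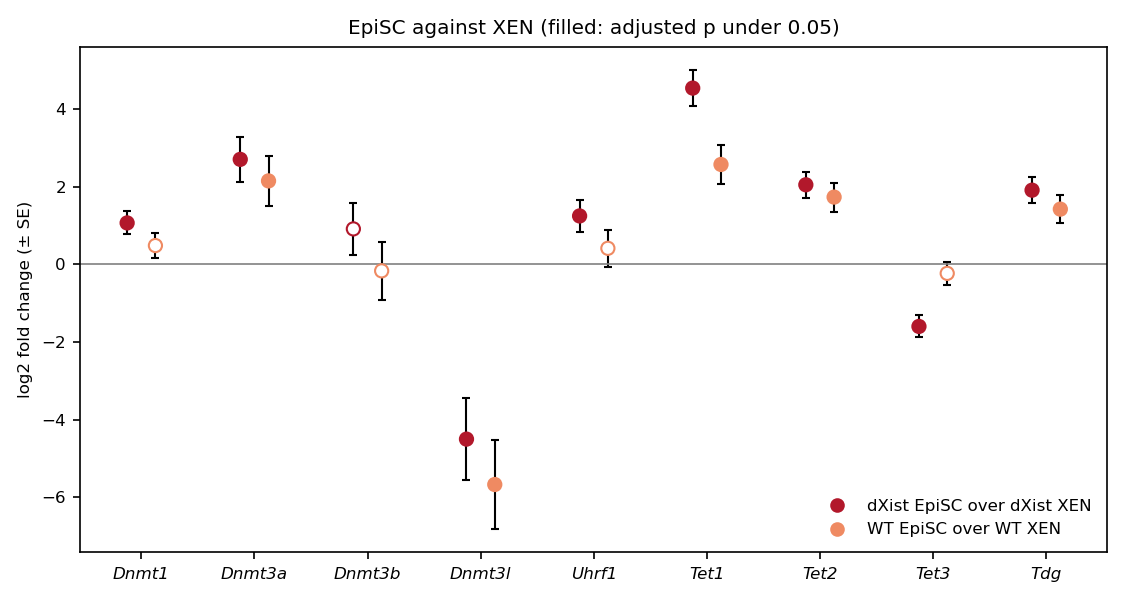
Log2 fold change of each gene, EpiSC over XEN, in dXist cells and in WT cells (points, with SE as bars, filled where the adjusted p was under 0.05). Tet1 had the highest value in each genotype (4.55 in dXist and 2.58 in WT) and Dnmt3l the lowest (-4.50 in dXist and -5.67 in WT).

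The make-up of the Tet family differed between the cell types. Per length, Tet1 supplied 78.3% and 76.2% of the summed Tet level in dXist EpiSC and 61.3% and 55.4% in WT EpiSC. In XEN it supplied 5.47%, 9.38% and 18.7% in dXist and 27.9% and 25.5% in WT. Tet3 supplied the largest share in every untreated XEN library, with 84.7%, 80.9% and 63.5% in dXist XEN and 49.4% and 57.0% in WT XEN, and only 8.0% and 7.34% in dXist EpiSC and 15.0% and 18.6% in WT EpiSC. The summed Tet level was 25.9 and 33.8 FPKM in dXist EpiSC and 22.7 and 18.4 in WT EpiSC, against 8.50, 10.6 and 8.30 in dXist XEN and 7.84 and 7.19 in WT XEN.

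**Figure D3:**
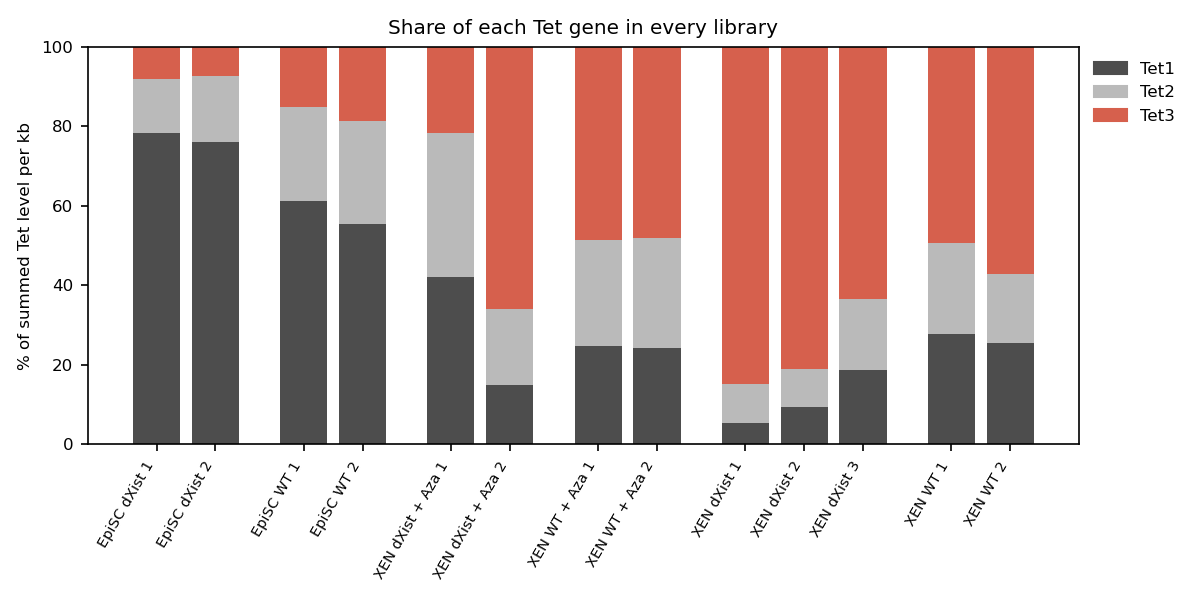
Share of Tet1, Tet2 and Tet3 in their summed level per kilobase of exon (%), as stacked bars, 1 bar per library. Tet1 is over 55% in each of the 4 EpiSC libraries, and Tet3 is 84.7% and 80.9% in dXist XEN libraries 1 and 2.

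Genes that work with the members were counted next, from lists chosen with earlier results of these data known. Over all genes 30.8% were called in the WT comparison and 38.4% in the dXist one. The counts of called genes below stand beside those shares, and no list was tested as a set. Of 24 tested genes that recruit or assist methylation, 4 rose and 1 fell in WT EpiSC against WT XEN (median log2 change 0.50, against 0.13 over all genes), and 7 rose and 3 fell in dXist EpiSC against dXist XEN (0.20, against 0.09). Nsd1, a histone H3 lysine 36 methyltransferase, rose in both (log2 change 1.71 in WT and 1.68 in dXist), as did Qser1, a protein that in human stem cells guards promoters from new methylation (2.42 and 1.63). Mphosph8, a reader of methylated histone H3 lysine 9, rose in WT (1.56) and the histone H3 lysine 9 methyltransferase Ehmt2 fell there (-1.89). In WT EpiSC Qser1 averaged 172 ± 147 CPM and Mphosph8 150 ± 115 CPM (SD), so the libraries differed widely for both genes. In WT XEN they averaged 32.0 ± 3.66 and 50.9 ± 4.12 CPM. Kdm2b, which binds unmethylated CpG islands, and Cdca7, a partner of the remodeller Hells, rose in dXist (1.64 and 1.43). Of 10 genes listed as methyl-CpG readers or their relatives, 3 rose and 2 fell in each genotype. Zbtb38 (2.20 in WT and 1.27 in dXist) and the relative Mbd5 (1.22 and 1.14) rose in both. Mbd4, a mismatch glycosylase, rose in WT (1.24), Mbd1 fell in both (-1.44 and -1.72) and Mbd2 fell in dXist (-2.09).

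Of 20 genes of base excision and other demethylation routes, 3 rose and 3 fell in WT, and 3 rose and 2 fell in dXist (medians -0.01 and 0.46). Over all genes 30.8% were called in WT and 38.4% in dXist, so these counts were not above the share of all genes. The cytidine deaminase Apobec1 was at 4.59 CPM in WT EpiSC and 0.0822 CPM in WT XEN, and at 8.12 CPM in dXist EpiSC and 0.176 CPM in dXist XEN (log2 change 5.73 and 5.53). Its relative Apobec2 was called higher at 4.73 CPM in WT EpiSC and 0.0159 CPM in WT XEN, and at 6.44 CPM in dXist EpiSC and 0.313 CPM in dXist XEN. Both Apobec genes passed the filter on low counts through their EpiSC libraries, so their calls add no support. The size of their changes rests on few XEN counts. Xrcc1, the repair scaffold, rose in dXist (1.06). Hmces, which shields abasic sites, fell in both (-1.58 and -1.51), and Idh2, which feeds the cofactor of the Tet enzymes, fell in WT (-1.12). Of 15 genes of methyl donor supply, 3 rose and 2 fell in WT and 2 rose and 3 fell in dXist (medians 0.08 and 0.12). The folate enzyme Mthfd1 rose in both (2.21 and 2.40), as did Mtap (1.34 and 1.14). The mitochondrial enzyme Mthfd2 fell in dXist (-2.45).

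Of 11 genes that take up or metabolise Aza, 1 rose and 2 fell in WT EpiSC against WT XEN (median 0.72). In dXist EpiSC against dXist XEN 2 rose and 3 fell (median -0.22). The share of all genes called was 30.8% in WT and 38.4% in dXist. The nucleoside carriers Slc28a1 (log2 change -7.54 in WT and -5.77 in dXist) and Slc29a1 (-2.18 and -2.58) fell in both. Slc28a1 was at 0.0666 CPM in WT EpiSC and passed the filter on low counts through its XEN libraries, so its calls add no support. The activating kinase Dck rose in WT (2.13), and Cda, which deaminates the drug, and the nucleotide hydrolase Samhd1 rose in dXist (4.14 and 1.27). Cda averaged 4.32 CPM in dXist EpiSC and 0.244 ± 0.180 CPM (SD) in dXist XEN. The size of its change rests on few XEN counts, and its call adds no support. Of 11 tested germline genes known to be silenced by methylation, 1 rose and 1 fell in WT and 1 rose and 4 fell in dXist. Tdrkh rose in both (69.1 ± 51.9 CPM in WT EpiSC and 0.833 ± 0.907 CPM in WT XEN, SD), with a wide spread between libraries. Taf7l, at 0 CPM in WT EpiSC and 0.264 CPM in WT XEN, was the 1 that fell in WT. Taf7l passed the filter on low counts through its XEN libraries, so its calls add no support. Rhox5 (-4.05) and Brdt (-1.98) were among the 4 in dXist, with Taf7l. Of 30 replication genes, the S-phase list set beside Dnmt1 and Uhrf1, 3 rose and 2 fell in WT (median 0.02) and 5 rose and 2 fell in dXist (0.13). Cdt1 fell (-2.54) and Prim1, Pola1 and Ccne1 rose in WT (1.09, 1.30 and 1.33). In dXist Pole, Ccne1 and Fen1 rose (1.56, 1.62 and 2.98) and Ccne2 fell (-1.66). No gene of these 7 lists was called in the 6 comparisons that follow.

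Whether loss of Xist moved the methylation genes in XEN cells was then asked. No member passed, with edgeR at an adjusted p under 0.05, in dXist against WT XEN, where 0.0217% of 18393 genes were called. None was under 0.05 unadjusted either (1973 genes were), and DESeq2 called 0 members and 3.08% of genes. The log2 change was negative for 7 of the 9 members, with a median of -0.74 (0.00 over all genes). Groups did not overlap for 3 members, Dnmt1, Tet1 and Tet3, and for 28.3% of all genes.

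Dnmt3b had 29.7, 29.6 and 168 CPM in dXist XEN, against 165 and 206 CPM in WT XEN. Libraries 1 and 2 were low and alike, and library 3 lay within the WT range. With all 3 the log2 change was -1.28 (SE 0.68, adjusted p = 0.531). Without library 3 it was -2.67 (SE 0.30, adjusted p = 0.0136). Dnmt3b was the 1 member called in that setting, with 2.87% of all genes. Without library 1 or 2 instead, its change was -0.89 and -0.90 (adjusted p = 0.917 and 0.904). Library 3 stands out by its own Dnmt3b value, so the Dnmt3b call without it adds no support. Dnmt3a, by contrast, had 64.2, 139.7 and 24.9 CPM in dXist XEN, against 62.6 and 71.2 CPM in WT XEN, so library 2 was high and library 3 low, and the log2 change was 0.18 (adjusted p = 0.947). Dnmt3a over Dnmt3b per length was 0.662, 1.45 and 0.0454 in dXist XEN libraries 1, 2 and 3, against 0.116 and 0.106 in WT XEN. The 3 dXist libraries thus fell on both sides of the WT libraries in the balance of the de novo enzymes. Dnmt3l had 7.67, 0.972 and 8.76 CPM in dXist XEN, against 13.8 and 6.28 CPM in WT XEN, and library 2 alone lay below the WT range (log2 change -0.79, adjusted p = 0.744).

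Dnmt1 had 114, 162 and 196 CPM in dXist XEN, against 241 and 285 CPM in WT XEN, without overlap (log2 change -0.74, SE 0.41, adjusted p = 0.547). Its partner Uhrf1 had 56.0, 91.9 and 166 CPM in dXist XEN, against 139 and 225 CPM in WT XEN, with library 3 inside the WT range (log2 change -0.80, SE 0.46, adjusted p = 0.558). Without library 3 Uhrf1 was at -1.32 (adjusted p = 0.115). Tet1 had 7.18, 15.4 and 24.0 CPM in dXist XEN, against 33.7 and 28.4 CPM in WT XEN (log2 change -0.99, SE 0.56, adjusted p = 0.550, or -1.47 and 0.196 without library 3). Tet3 went the other way, with 120.2, 143 and 88.0 CPM in dXist XEN, against 64.6 and 68.4 CPM in WT XEN, all 3 above both (log2 change 0.81, SE 0.44, adjusted p = 0.537). Tet2 had 14.1, 17.3 and 25.0 CPM in dXist XEN, against 30.1 and 21.2 CPM in WT XEN (log2 change -0.44, adjusted p = 0.729). Tdg had 30.9, 33.6 and 39.5 CPM in dXist XEN, against 36.7 and 40.3 CPM in WT XEN (log2 change -0.15, adjusted p = 0.887), and both of these groups overlapped.

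The S-phase list had 7 of 30 genes positive in the same comparison, with a median of -0.32, and summed to 2616 to 3592 CPM in dXist XEN and 2854 to 4363 CPM in WT XEN. Fibroblast markers summed to 31.7 to 132 CPM in dXist XEN and 244 to 299 CPM in WT XEN. Of the 12 markers, 4 to 6 had no count in dXist XEN and 2 to 6 in WT XEN. Col1a1 averaged 0.388 CPM in dXist XEN and 0.478 CPM in WT XEN, and Col1a2 0.256 and 0.164 CPM. The sums thus rest on a few other markers and do not describe the list as a whole. The part of either list in the members' values was not tested.

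**Figure D4:**
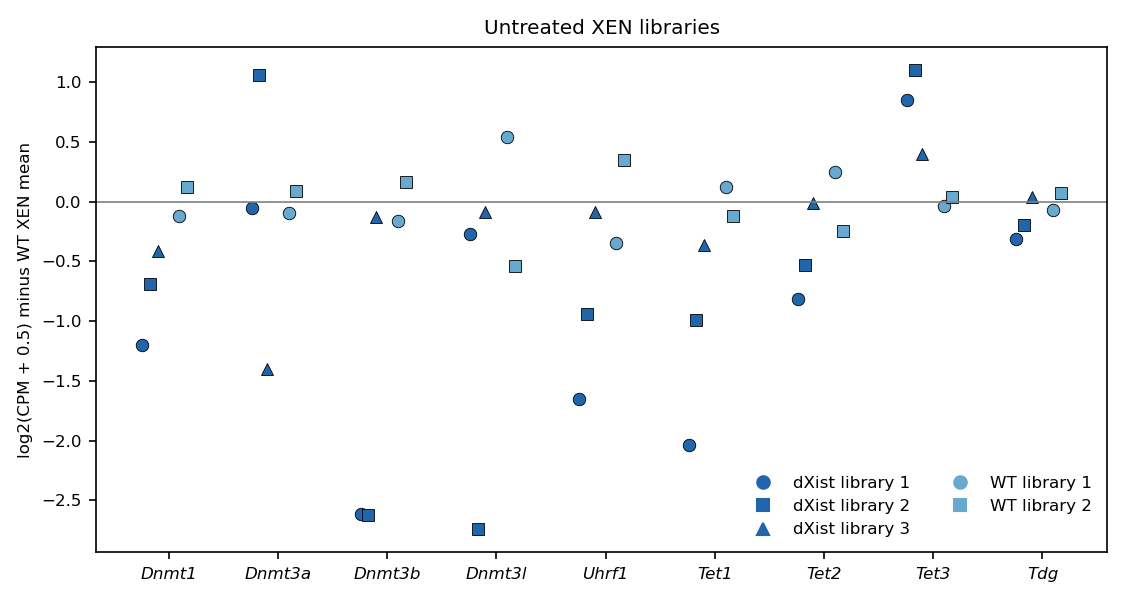
Each untreated XEN library minus the WT mean, in log2(CPM + 0.5), for the 9 genes, dXist libraries left and WT libraries right. For Dnmt3b, dXist libraries 1 and 2 lie far below zero and library 3 lies between the WT libraries, and for Tet3 all 3 dXist libraries lie above both WT libraries.

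In EpiSC the deletion was tested on 8 members, since Dnmt3l did not pass the filter on low counts there (0.299 and 0.184 CPM in dXist, 0.113 and 0.291 CPM in WT). With edgeR 0 of 17132 genes were called, 0% of all, although 1741 were under an unadjusted p of 0.05 and DESeq2 called 3.05% of genes and 0 members. Tet1, with 314 and 398 CPM in dXist EpiSC, against 215 and 157 CPM in WT EpiSC, was the 1 member under 0.05 unadjusted (1.91-fold, log2 change 0.96, SE 0.33, adjusted p = 0.436). Within the polyA-like pair its difference was 0.55 and within the total-RNA-like pair 1.34, in log2(CPM + 0.5). Dnmt3a had 549 and 432 CPM in dXist EpiSC, against 350.4 and 246 CPM in WT EpiSC (log2 change 0.74, SE 0.35, adjusted p = 0.558), with 0.65 and 0.81 within the pairs. Tet3 had 34.6 and 41.4 CPM in dXist EpiSC, against 56.8 and 56.9 CPM in WT EpiSC (log2 change -0.56, SE 0.25, adjusted p = 0.542), with -0.71 and -0.45 within the pairs. Dnmt3b had 145 and 136 CPM in dXist EpiSC, against 177 and 154 CPM in WT EpiSC (log2 change -0.22, adjusted p = 0.821). These 4 members did not overlap between genotypes, as was the case for 42.8% of all genes. Dnmt1, Uhrf1, Tet2 and Tdg overlapped, with log2 changes of -0.16, 0.03, -0.13 and 0.33. Fibroblast markers summed to 923 to 1033 CPM in dXist EpiSC and 1602 to 2597 CPM in WT EpiSC, with 11 of 12 negative, and their part was not tested.

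The deletion's effect in EpiSC minus that in XEN was tested in a fit of the 9 untreated libraries. No member was called, and 0.0101% of all genes were. For Tet1 the difference was 1.97 (SE 0.65, unadjusted p = 0.0132, adjusted p = 0.380), Tet1 being higher in dXist than in WT EpiSC and lower in dXist than in WT XEN. For Tet3 the difference was -1.37 (SE 0.40, unadjusted p = 0.00716, adjusted p = 0.329), with the opposite signs. Without dXist XEN library 3, when 3.44% of all genes were called, Dnmt3b (2.45, adjusted p = 0.0152) and Tet1 (2.43, adjusted p = 0.0479) passed. Tet3 did not (-1.53, adjusted p = 0.0506). That library stands out by its own Dnmt3b value, and it also has the highest Tet1 value of dXist XEN (24.0 CPM, against 7.18 and 15.4 CPM). Neither the Dnmt3b call nor the Tet1 call without it therefore adds support.

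Aza was compared with no treatment in each XEN genotype. In WT XEN no member passed and none was under 0.05 unadjusted, where 0.582% of all genes were called with edgeR, and DESeq2 called 0 members and 3.6% of genes. Both treated WT libraries were total-RNA-like and both untreated ones polyA-like, so in WT XEN the treatment and the library type cannot be told apart. Groups did not overlap for 6 members, against 59.8% of all genes. Tet2 had 47.2 and 42.9 CPM in treated WT XEN, against 30.1 and 21.2 CPM in untreated WT XEN (log2 change 0.90, SE 0.45, adjusted p = 0.460). Dnmt3b had 96.2 and 97.2 CPM in treated WT XEN, against 165 and 206 CPM in untreated WT XEN (log2 change -0.86, SE 0.76, adjusted p = 0.690). Tdg had 24.1 and 25.3 CPM in treated WT XEN, against 36.7 and 40.3 CPM in untreated WT XEN (log2 change -0.56, SE 0.33, adjusted p = 0.537). In EpiSC, where both library types exist untreated, the total-RNA-like library minus the polyA-like one was -0.72 in dXist and -0.88 in WT for Tdg, 0.65 and -0.17 for Tet2, and -0.09 and -0.20 for Dnmt3b. Dnmt1, the main protein target of the drug, had 257 and 258 CPM in treated WT XEN, against 241 and 285 CPM in untreated WT XEN, and Uhrf1 had 176 and 152 CPM in treated WT XEN, against 139 and 225 CPM in untreated WT XEN, so the treated libraries of both lay inside the untreated range. Dnmt3l overlapped too. Dnmt3a (58.3 and 56.0 CPM treated, 62.6 and 71.2 CPM untreated), Tet1 (40.4 and 34.2 CPM treated, 33.7 and 28.4 CPM untreated) and Tet3 (85.6 and 73.5 CPM treated, 64.6 and 68.4 CPM untreated) did not overlap, at adjusted p of 0.956, 0.867 and 0.818.

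In dXist XEN all 5 libraries were polyA-like. No member passed with edgeR, which called 0.0761% of all genes, and 2 were under 0.05 unadjusted. Tet2 had 79.8 and 36.7 CPM in treated dXist XEN, against 14.1, 17.3 and 25.0 CPM in untreated dXist XEN (3.10-fold, log2 change 1.46, SE 0.40, adjusted p = 0.0850). Tet1 had 85.6 and 26.4 CPM in treated dXist XEN, against 7.18, 15.4 and 24.0 CPM in untreated dXist XEN (3.61-fold, log2 change 1.67, SE 0.56, adjusted p = 0.113). These were the 2 members whose groups did not overlap, as for 42.2% of all genes. DESeq2, which called 15.9% of its genes here, called both (adjusted p = 0.0114 for Tet2 and 0.0301 for Tet1). Over the 13 alternatives the adjusted p ran from 0.00968 to 0.336 for Tet2 and from 0.0130 to 0.609 for Tet1, with 4 and 3 calls, and the sign held each time.

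The 2 treated dXist libraries differed much from each other. Library 1 was the high one for Dnmt1, with 429.9 and 167 CPM in treated dXist XEN, against 114, 162 and 196 CPM in untreated dXist XEN. Tet3 was reversed in order, with 47.4 and 125.9 CPM in treated dXist XEN, against 120.2, 143 and 88.0 CPM in untreated dXist XEN, and Dnmt3a too, with 83.0 and 195 CPM treated and 64.2, 139.7 and 24.9 CPM untreated. As a result the Tet1 share of the summed Tet level was 42.2% and 14.9% in treated dXist XEN and 5.47% to 18.7% in untreated dXist XEN. Leaving out treated library 2, the one with 242 CPM of Xist, 4 members were called beside 23.9% of all genes: Dnmt1 (log2 change 1.22, adjusted p = 0.0353), Tet1 (2.23, 0.0193), Tet2 (1.85, 0.00968) and Tet3 (-1.53, 0.0168). That setting rests on 1 treated library, assumed to vary like the other groups. Uhrf1 (81.3 and 54.6 CPM treated, 56.0 to 166 CPM untreated), Dnmt3b (64.4 and 58.3 CPM treated, 29.6 to 168 CPM untreated), Dnmt3l (6.56 and 7.05 CPM treated, 0.972 to 8.76 CPM untreated) and Tdg (28.5 and 33.5 CPM treated, 30.9 to 39.5 CPM untreated) overlapped, with log2 changes of -0.79, -0.47, 0.08 and -0.31. Without untreated dXist library 3 the change of Dnmt3b was 0.92 (adjusted p = 0.0886). By the names in the labels, treated libraries 1 and 2 correspond to untreated libraries 1 and 2, and untreated library 3 has no treated namesake. Dnmt3b was at 29.7 CPM untreated and 64.4 CPM treated under the first name, and at 29.6 and 58.3 CPM under the second. The negative change with all libraries thus rests on untreated library 3, at 168 CPM.

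**Figure D5:**
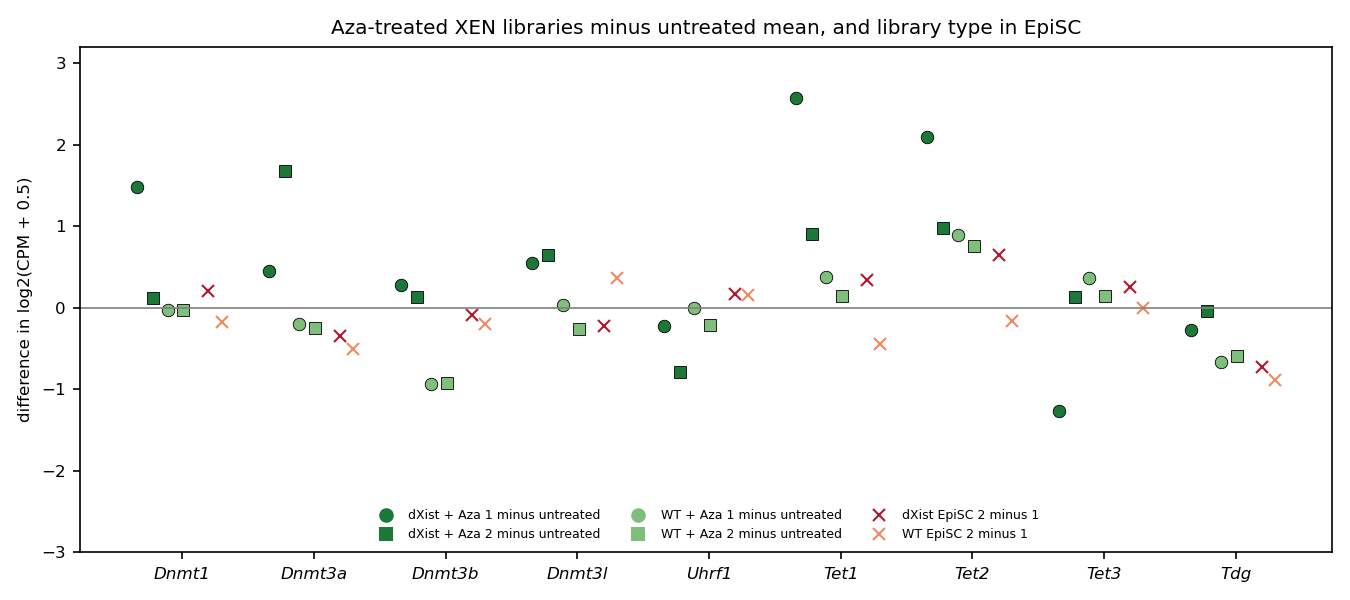
Each Aza-treated XEN library minus the untreated mean of its genotype (circles and squares), and the total-RNA-like minus the polyA-like library of each EpiSC genotype (crosses), in log2(CPM + 0.5). For Tet1 and Tet2 all 4 treated libraries lie above zero, and for Tdg the WT treated points lie near the EpiSC crosses.

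The effect of Aza in dXist minus that in WT XEN was called for 0 members and 0.245% of all genes. For Tet1 it was 1.32 (SE 0.84, adjusted p = 0.688) and for Tet3 -0.90 (SE 0.64, adjusted p = 0.715), and without treated dXist library 2 Tet3 passed at -1.85 (adjusted p = 0.0391), with 8.1% of all genes. In treated against untreated dXist XEN, 22 of 26 tested germline genes that methylation silences were positive (median log2 change 2.09). In treated against untreated WT XEN 24 of 26 were positive (median 4.23), and none was called in either. The filter on low counts kept 26 of the 29 listed genes in the XEN fit and 11 in the fit of the untreated libraries. Many thus passed it through treated libraries, where they were high, so their sign adds no support. In WT XEN the treatment and the library type cannot be told apart. The 29 genes summed to 54.7 to 161 CPM in treated and 15.0 to 89.4 CPM in untreated dXist XEN. In WT XEN they summed to 55.1 to 56.8 CPM treated and 10.9 to 19.8 CPM untreated.

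Across libraries some members moved together. These correlations are descriptions, since the libraries of a group share a genotype, a treatment and often a library type. Over the 9 XEN libraries, in log2(CPM + 0.5), Pearson's r was 0.94 between Dnmt1 and Tet1 (Spearman's rho 0.87), 0.92 between Tet1 and Tet2 (0.92), 0.82 between Dnmt3b and Uhrf1 (0.77), and 0.79 between Dnmt1 and Tet2 (0.68). It was -0.90 between Dnmt1 and Tet3 (rho -0.85) and -0.79 between Tet1 and Tet3 (-0.77). Without the 2 libraries farthest from the median of the first gene, r was 0.77, 0.82, 0.83, 0.34, -0.90 and -0.73 in the order given, over 7 libraries, so the relation of Dnmt1 with Tet2 rests on those 2 libraries. These are the 6 pairs with r of the largest size among 36 computed. Uhrf1 had the highest r with the mean of the S-phase list over the 9 XEN libraries, at 0.70, against 0.27 for Dnmt1. Over all 13 libraries and 14247 genes, the gene whose level was most like a member's was Brca1 for Dnmt1 (r 0.96), Prex1 for Uhrf1 (0.96), Fbxo32 for Dnmt3a (0.95), Eml1 for Dnmt3b (0.96) and Vit for Dnmt3l (0.98). It was Cc2d2a for Tet1 (0.97), Fbxo10 for Tet3 (0.95) and Asxl1 for Tdg (0.98).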

How the data were processed

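Read counts per gene in 13 libraries were used as deposited by the authors, without normalisation. Per the submitters' processing notes, FastQC, STAR 2.7.9a and featureCounts 2.0.1 were used with GRCm38 (mm10). The sources used here do not give the strand counted, the treatment of multi-mapped reads or the annotation used. NEBNext Ultra and TruSeq stranded kits are named per the labels without assignment to libraries. GENCODE vM21 matched 38240 identifiers (99.64%).

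Tests were made with edgeR 4.0.16 in R 4.3.3, after TMM scaling and filterByExpr, by the two-sided robust quasi-likelihood F test with Benjamini-Hochberg adjustment over all genes tested and calls under 0.05. The 9 XEN libraries, the 4 EpiSC libraries and the 9 untreated libraries each had a fit, with group as the only term. The SE was derived from the log2 change and the root of F. Fold changes quoted as "fold" are ratios of mean CPM. FPKM divides CPM by exon-union length. Intervals on counts are exact Poisson and cover counting error only, and 3 counts equalled 0.0815 to 0.499 CPM. Scripts were tested on simulated data. Alternatives were DESeq2 1.42.0, no filter, upper-quartile scaling, removal of tailless and histone genes, a library type term, polyA-like libraries alone, the compared groups alone, a replicate block and each library left out.

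The members and the lists (cofactors, readers, base excision, methyl donor, drug metabolism, germline, S phase and markers of 5 cell types) were chosen with earlier results of these data known. All members are named, up to 4 called genes per list with the smallest adjusted p, and the genes most correlated with each member among those of at least 1 CPM. Some genes that this rule names are not reported here. Naive pluripotency markers had 2 higher and 3 lower of 7 tested in both EpiSC against XEN comparisons, and trophoblast markers 3 higher and 4 lower (dXist) and 2 and 2 (WT) of 9. No replicate pair agreed within sampling noise. The 2 treated WT XEN libraries came nearest, with a chi-square of 3.89 per degree of freedom, against 75.5 to 524 for the other pairs.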

Additional observations from a re-analysis of the deposited data

Results flagged for a closer look

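All libraries of one group lay on the other side of their comparison's baseline from all libraries of the second group for 5 values, the baseline being the mean of the control libraries in log2(CPM + 0.5). Between the effects of the Xist deletion in EpiSC and in XEN, this was so for Tet1, with a difference of 1.97 (SE 0.65, unadjusted p = 0.0132, adjusted p = 0.380 in edgeR), and for Tet3, with -1.37 (SE 0.40, unadjusted p = 0.00716, adjusted p = 0.329). Between the effects of Aza in dXist and in WT XEN, it was so for Dnmt1 at 0.70 (SE 0.62, adjusted p = 0.767), for Dnmt3a at 0.88 (SE 0.92, adjusted p = 0.804) and for Dnmt3b at 0.39 (SE 1.02, adjusted p = 0.928). None of the 5 differences passed the test of the difference. The fitted log2 changes had the same sign in both genotypes for Dnmt1 (0.75 in dXist and 0.05 in WT) and Dnmt3b (-0.47 and -0.86), so for these 2 genes the fit does not show opposite directions. In the WT arm of the Aza differences the library type changes with the treatment, and the 2 cannot be told apart.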

How the results depend on the processing

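Of 917 alternative values, 835 kept their direction and side of the threshold, 27 lost and 21 gained a call, and 34 changed sign, none of these with a call. In WT EpiSC against XEN, 3 members were called among polyA-like libraries (16.4% of all genes) and 2 to 4 with a library left out (14.4% to 23.1%), and in dXist 5 (13.4%) and 5 to 9 (16.3% to 43.4%). For the Xist deletion in XEN, 0 to 1 were called with a library left out (0.0055% to 2.87%). For the deletion effect in EpiSC minus XEN, 1 was called with no filter (1.76%) and 0 to 2 with a library left out (0.00471% to 3.44%). For Aza in dXist XEN, 2 were called with no filter (7.71%), 2 with DESeq2 (15.9%), 1 with a library type term (Tet2; 6.68%) and 0 to 4 with a library left out (0% to 23.9%), and for the Aza effect in dXist minus WT 0 to 1 (0.14% to 8.1%). The cause was not tested.

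The replicate number was also fitted as a block. The labels do not say that a number marks a shared culture. Labels of the treated dXist XEN libraries repeat the names of untreated dXist XEN libraries 1 and 2, and untreated library 3 has no treated namesake. Deviations of same-numbered libraries correlated at 0.77 in EpiSC, where the number follows the library type. They correlated at -0.13 and 0.06 between dXist and WT XEN, and at -0.05 and 0.10 between untreated and treated dXist XEN. The numbers were therefore not taken as pairs. With the replicate block 1 member was called for the deletion in XEN (Dnmt3b, whose dXist library 3 then has a number of its own), 1 in EpiSC (Tet1, adjusted p = 0.0476) and 3 in their difference (Dnmt3b, Tet1 and Tet3). The block called 2%, 11.4% and 3.77% of all genes in these comparisons. In dXist EpiSC against XEN it called all 9 members, Dnmt3b included (log2 change 2.27, adjusted p = 0.000359), with 44.9% of all genes, and in the WT 5 members with 40%.

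Not all sign changes were small: Dnmt3b under Aza in dXist XEN was -0.47 with all libraries and 0.92 without untreated dXist library 3 (adjusted p = 0.0886). With upper-quartile scaling Dnmt3b in WT EpiSC against XEN was 0.033, and under Aza in WT XEN Dnmt3l was 0.003 and Uhrf1 0.079. Under Aza in WT XEN Dnmt1 was -0.064 with no filter, -0.025 without tailless and histone genes and -0.041 with the library type term, under which Dnmt3a was 0.20, Tdg 0.16 and the Tdg Aza difference -0.33. The Tet2 deletion difference was -0.11 among polyA-like libraries. With the block, Dnmt3l was 0.005 under Aza in WT XEN and Dnmt3b 0.91 under Aza in dXist XEN. With a library left out, values ran from -0.323 to 0.068 for Dnmt3b in WT EpiSC against XEN and from -0.61 to 0.60 for Dnmt3a with the deletion in XEN. With the deletion in EpiSC they ran from -0.061 to 0.127 for Uhrf1, -0.089 to 0.82 for Tdg and -0.49 to 0.15 for Tet2, and from -0.047 to 0.58 for the Tet2 deletion difference. Under Aza in WT XEN they ran from -0.10 to 0.13 for Dnmt1, -0.64 to 0.52 for Dnmt3l and -0.41 to 0.27 for Uhrf1. Under Aza in dXist XEN they ran from -0.86 to 0.92 for Dnmt3b, -0.42 to 0.54 for Dnmt3l, -0.049 to 1.22 for Dnmt1 and -0.10 to 1.53 for Dnmt3a. For the Aza difference they ran from -0.45 to 0.70 for Dnmt3l, -0.008 to 1.77 for Dnmt3b and -0.01 to 1.18 for Dnmt1.

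Not run were polyA-like libraries alone for the deletion in EpiSC (no residual degrees of freedom), for Aza in WT XEN and for the Aza difference (no polyA-like treated WT library), and the compared groups alone where a comparison uses all groups of its fit. In EpiSC, Dnmt3l rests on 4 to 11 counts a library.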
